A study of Mus musculus with 47 samples.

Results

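The B cell identity and receptor genes described here are 9 of the 18193 genes that could be read from the arrays: Pax5, Ebf1, Pou2af1, Blnk, Cd79a, Cd79b, Ms4a1, Cd22 and Bank1. They were chosen by name, and each was read from the probe set, among those annotated to 1 gene, with the highest mean over the 47 arrays. Of the 9, 6 belong to the early part of the B lineage programme (Pax5, Ebf1, Pou2af1, Blnk, Cd79a, Cd79b) and 3 are typical of later B cells (Ms4a1, Cd22, Bank1). The question was how the levels of these genes varied between the leukaemic spleens, and whether the early and the late genes varied together.

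The data were 47 Affymetrix whole-genome expression profiles, 1 array per mouse, of spleens taken at necropsy with an undifferentiated myeloid leukaemia at the terminal stage. All mice carried a cre transgene under the beta-actin promoter, Tg(ACTB-cre)2Mrt, the Sleeping Beauty transposase allele Gt(ROSA)26Sortm2(sb11)Njen and 1 of a pair of transposon transgenes, TgTn(sb-T2/Onc2)6113Njen (line 6113) or TgTn(sb-T2/Onc2)6070Njen (line 6070), so that transposition was not limited to blood cells. By label, 26 tumours had a transposon insertion in Erg and 21 had none, and there were no mice without leukaemia or without transposition. Tumours labelled with an Erg insertion came from 9 mice of line 6113 and 17 of line 6070, with 13 labelled female and 13 male and an age label of 49 to 97 (median 74, unit not given). Tumours labelled without one came from 12 mice of line 6113 and 9 of line 6070, with 12 labelled female and 9 male and an age label of 32 to 89 (median 54).

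Values are log2 RMA expression values, in which 1 unit is a doubling. Probe sets spanned 4.78 to 12.99 and medians of arrays 5.19 to 5.24, so a value near 5.2 is close to the floor of the measurement, where differences are compressed. Correlations between arrays ran from 0.903 to 0.991, and the difference between the 3′ and 5′ control probe sets, which grows as RNA is degraded, ran from 0.65 to 2.96 (median 1.31). The sex label matched the X- and Y-linked transcripts in 23 arrays and did not in 24, so groups are named by label only and each comparison between them stands under that limit. Levels and correlations use no labels, except where a correlation is given within a line.

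B cells arise in the bone marrow from lymphoid progenitors. Ebf1 and Pax5 are transcription factors that start and hold the B cell programme, and Pou2af1 (OCA-B) is a coactivator that binds octamer factors on immunoglobulin and other B cell promoters. Cd79a and Cd79b are the signalling chains of the B cell receptor and of its precursor form, and Blnk is the adaptor that links the receptor's kinases to downstream enzymes. Ms4a1 encodes CD20, Cd22 an inhibitory coreceptor that binds sialic acid, and Bank1 a scaffold of receptor signalling; these increase as B cells mature. Vpreb1 and Igll1 encode the surrogate light chain, which is made in pro-B and pre-B cells and shut off later. The spleen normally holds many mature B cells.

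Reference promoters from RefSeq (GRCm38.p6), 250 bases before to 50 after the annotated start, were at hand for 7 of the 9 genes. The promoters below are shown because the genes varied together and these 4 held a match to a motif of a B lineage factor, 2 of them from early genes (Blnk, Cd79a) and 2 from late ones (Cd22, Bank1). Capitals mark the matches, on either strand, to the EBF palindrome (TCCC, any 2 bases, then GGGA), the octamer ATGCAAAT that Pou2af1's partner factors bind, and the E-box CAGGTG that E2A proteins bind.
Blnk: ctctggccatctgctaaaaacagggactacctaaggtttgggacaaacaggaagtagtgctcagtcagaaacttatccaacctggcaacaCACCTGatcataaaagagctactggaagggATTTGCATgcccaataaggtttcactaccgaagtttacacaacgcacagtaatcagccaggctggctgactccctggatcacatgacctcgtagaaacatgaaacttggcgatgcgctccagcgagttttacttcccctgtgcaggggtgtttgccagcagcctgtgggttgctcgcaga
Cd79a: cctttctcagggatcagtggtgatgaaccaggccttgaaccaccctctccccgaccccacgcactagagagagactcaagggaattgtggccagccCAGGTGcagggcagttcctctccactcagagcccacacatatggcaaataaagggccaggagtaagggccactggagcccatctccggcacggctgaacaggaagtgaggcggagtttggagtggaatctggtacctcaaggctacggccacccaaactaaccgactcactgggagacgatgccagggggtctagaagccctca
Cd22: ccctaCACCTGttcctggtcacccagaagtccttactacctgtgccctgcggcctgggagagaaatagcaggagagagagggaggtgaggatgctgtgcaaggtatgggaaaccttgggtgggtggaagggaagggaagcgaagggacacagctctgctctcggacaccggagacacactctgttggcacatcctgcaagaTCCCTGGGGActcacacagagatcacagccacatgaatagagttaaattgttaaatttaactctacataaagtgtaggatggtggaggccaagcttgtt
Bank1: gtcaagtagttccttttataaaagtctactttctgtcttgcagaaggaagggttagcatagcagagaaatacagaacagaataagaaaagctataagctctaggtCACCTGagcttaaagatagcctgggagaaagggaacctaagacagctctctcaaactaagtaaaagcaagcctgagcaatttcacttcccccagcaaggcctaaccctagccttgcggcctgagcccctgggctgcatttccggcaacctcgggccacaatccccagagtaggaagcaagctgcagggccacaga

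The Blnk promoter (chr19:40994172-40994471, minus strand) held the octamer at -130 from the start and an E-box at -160. An E-box lay at -154 in the Cd79a promoter (chr7:24897247-24897546, plus strand). The Cd22 promoter (chr7:30878979-30879278, minus strand) held the EBF palindrome at -49 and an E-box at -245, and the Bank1 promoter (chr3:136326017-136326316, minus strand) an E-box at -145. Among 32851 mouse promoters of the same length, 0.904% held the palindrome, 1.74% the octamer and 20.2% the E-box. The windows of Pax5, Ebf1 and Pou2af1 held none of these letters, and a match describes sequence only. Only these exact letters were searched, so other forms of the sites go unmarked, and lower case does not show that a site is absent.

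Among the B cell transcription regulators, Ebf1 was near the floor in most spleens and far above it in a distinct group of them. Its lowest, median and highest values over the 47 arrays were 5.02, 5.23 and 7.97 (SD 1.03). It was above log2 6 in 12 arrays, where it lay between 6.39 and 7.97, and at most 5.76 in the others, with a gap of 0.63 that held no array. Of the 4 other Ebf1 probe sets, 3 varied with the one used (r = 0.98, 0.99 and 0.99) and the other stayed at 5.01 to 5.21.

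Pou2af1 had the widest spread of the 9 genes, with a lowest, median and highest value of 5.06, 5.87 and 9.31 (SD 1.45). It was above log2 7 in 14 arrays and above log2 8 in 10. Pax5 differed from both: it stayed between 5.25 and 5.65 in all 47 arrays (median 5.36, SD 0.10), and its other probe set between 5.06 and 5.30. Both probe sets sat near the floor, which does not show whether Pax5 RNA was present.

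The receptor chains also differed in how far they left the floor. Cd79b ran from 5.11 through a median of 5.89 to 9.33 (SD 1.27) and was above log2 7 in 12 arrays. The values of Cd79a were 5.07, 5.26 and 6.55 (SD 0.44), above log2 6 in 8 arrays and never above 7. Blnk, the adaptor, ran from 5.37 through 5.76 to 9.57 (SD 1.32), with 13 arrays above log2 7. Of all genes, 99.9% had a smaller SD than Pou2af1 and than Blnk, 99.8% than Cd79b, 99.6% than Ebf1 and 93.6% than Cd79a, but 49.1% than Pax5.

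The 3 late genes took intermediate values in many spleens. Ms4a1 had a lowest, median and highest value of 5.12, 5.99 and 8.37 (SD 0.84), Cd22 of 5.39, 5.83 and 7.88 (SD 0.59) and Bank1 of 5.49, 5.91 and 8.50 (SD 0.67). They were above log2 6 in 22, 18 and 20 arrays and above log2 7 in 8, 6 and 8. The other Ms4a1 probe set varied with the one used (r = 0.98) but was above log2 7 in 4 arrays. The other Cd22 probe set (r = 0.92) ran from 4.98 to 6.02 and was never above log2 7. Counts at log2 7 for these genes thus depend on the probe set. In bulk tissue, fewer cells of a type and less RNA per cell cannot be told apart.

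The same spleens were high for most early genes. Pou2af1, Blnk and Cd79b were all above log2 7 in 12 arrays, and these were the 12 arrays with Ebf1 above log2 6. All 12 were also among the 14 arrays in which Vpreb1 was above log2 8 (8.47 to 11.06, against at most 7.28 in the other 33). The 9 genes were never all above log2 7 in 1 array, since Pax5 and Cd79a never reached it.

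Set out by Vpreb1, Ebf1 had a lowest, median and highest value of 5.40, 7.59 and 7.97 in the 14 arrays with high Vpreb1, against 5.02, 5.16 and 5.76 in the 33 others. For Cd79b these were 6.22, 8.31 and 9.33 against 5.11, 5.72 and 6.70. For Ms4a1 they were 5.44, 6.82 and 8.37 against 5.12, 5.92 and 7.25. Ebf1 overlapped between the sets from 5.40 to 5.76 and Cd79b from 6.22 to 6.70, while Ms4a1 overlapped over most of its range. Vpreb1 is a gene of the same lineage, so levels were not tested between the sets.

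The other 2 arrays with high Vpreb1 had little Ebf1. The spleen labelled without an Erg insertion, replicate 19, had Vpreb1 at 9.82 and Igll1 at 7.61 but Ebf1 at 5.40, Pou2af1 at 6.09, Blnk at 6.25, Cd79b at 6.22 and Ms4a1 at 5.44. In the spleen labelled with an Erg insertion, replicate 10, Vpreb1 was 8.47, Igll1 7.49, Ebf1 5.61, Pou2af1 7.43, Blnk 7.07 and Cd79b 6.87. This second spleen also had the T cell receptor gene Cd3d at 7.79, against a median of 5.54 over all arrays. In these 2 arrays the surrogate light chain genes were thus far above the floor and Ebf1 was inside the range of the 33 arrays with low Vpreb1.

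Late genes did not simply follow. At least 1 of Ms4a1, Cd22 and Bank1 was above log2 7 in 12 arrays and all 3 were in 4. Among the 12 arrays with high Pou2af1, Blnk and Cd79b, Ms4a1 was above log2 7 in 6 and not in 6, and 2 had no late gene above it. These 2 were the spleen labelled without an Erg insertion, replicate 13 (Ms4a1 5.87, Cd22 5.71, Bank1 6.11) and the one labelled with an Erg insertion, replicate 5 (Ms4a1 6.74, Cd22 6.79, Bank1 6.73).

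The late genes also parted from each other at the top. The spleen labelled with an Erg insertion, replicate 18, had the highest Ms4a1 (8.37) and Cd22 (7.88) of the series with Bank1 at 7.16. In the spleen labelled with an Erg insertion, replicate 16, Bank1 had its highest value (8.50) while Ms4a1 was 5.76. Conversely, Ms4a1 was above log2 7 with Vpreb1 near the floor in 2 spleens labelled with an Erg insertion, replicates 19 (Ms4a1 7.25, Vpreb1 5.18, Ebf1 5.41) and 21 (Ms4a1 7.18, Vpreb1 5.70, Ebf1 5.43). Ighm, the IgM heavy chain gene, was 11.58 and 10.91 in those 2 spleens, and Cd3d 9.42 and 5.62.

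**Figure D1:**
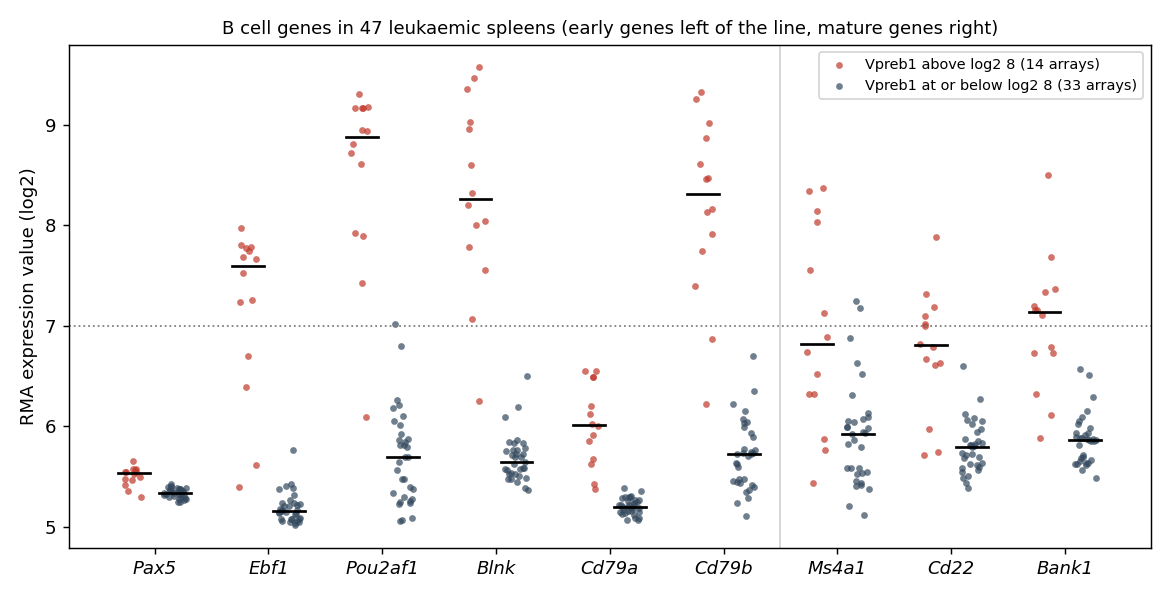
Log2 RMA value of each gene in each of the 47 arrays; every point is 1 spleen, red where Vpreb1 was above log2 8 (14 arrays) and blue where it was not (33 arrays), black bars are medians, and the dotted line is log2 7. Ebf1 leaves an empty band between 5.76 and 6.39, Pax5 stays at or below 5.65 in every spleen, and Ms4a1 overlaps widely between the colours.

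Because the spleens fell into these 2 clusters, a correlation over all 47 arrays takes in the step between them and is given here as a description, in which all 36 pairs passed the test used below. Over all arrays the median Pearson's r was 0.93 among the 15 pairs of early genes (0.78 to 0.97), 0.84 among the 18 pairs of an early with a late gene (0.43 to 0.92) and 0.84 among the 3 pairs of late genes (0.71 to 0.85). The same medians were 0.91, 0.85 and 0.92 within line 6070 and 0.95, 0.86 and 0.76 within line 6113. Correlations within the clusters follow, each tested with a two-sided permutation test of 100000 resamples and Benjamini-Hochberg adjustment over the 36 pairs.

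**Figure D2:**
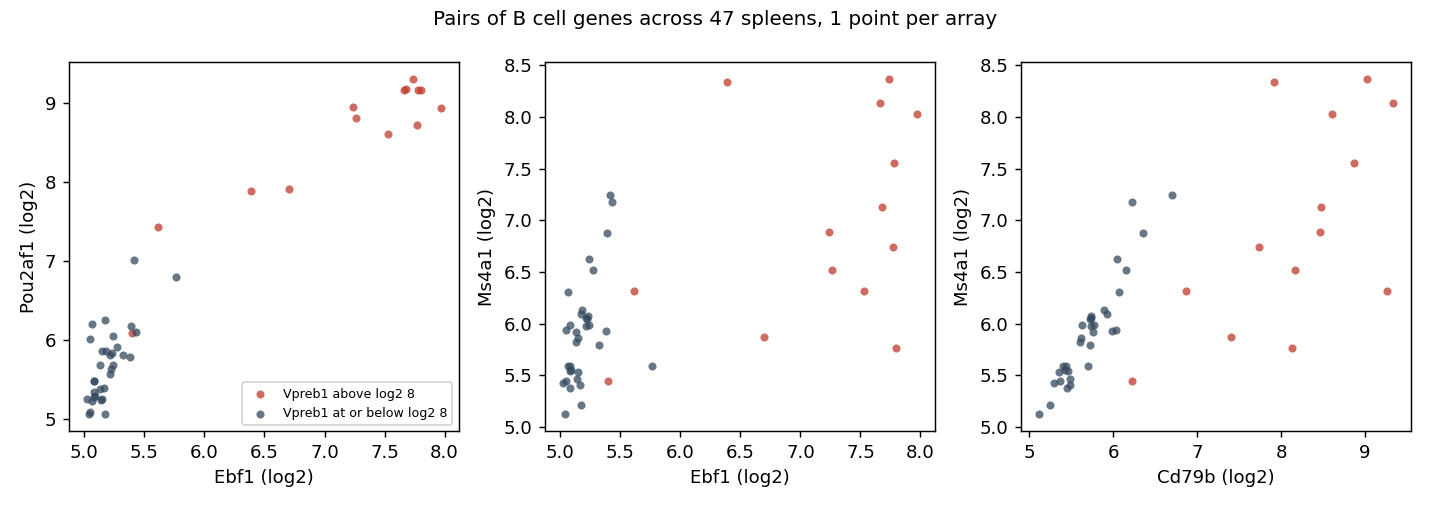
Log2 RMA values of Pou2af1 against Ebf1, Ms4a1 against Ebf1 and Ms4a1 against Cd79b, 1 point per array, red where Vpreb1 was above log2 8. Pou2af1 climbs with Ebf1 in both colours, Ms4a1 spreads from 5.44 to 8.37 among the red points, and in the blue points Ms4a1 follows Cd79b closely (r = 0.94).

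Within the 14 arrays with high Vpreb1, the early genes other than Pax5 varied together. Ebf1 and Pou2af1 had r = 0.94 (rho = 0.74; permutation test, adjusted p = 0.00066 for r and 0.0348 for rho), and r was 0.86 without the 2 arrays with the most extreme Ebf1. Ebf1 had r = 0.85 with Blnk (rho = 0.79, adjusted p = 0.00066 by the permutation test) and 0.83 with Cd79a (rho = 0.71, adjusted p = 0.00066). Without the same 2 arrays these r were 0.65 and 0.70, and r of Ebf1 with Cd79b went from 0.84 to 0.53. All 10 pairs among Ebf1, Pou2af1, Blnk, Cd79a and Cd79b passed by r (0.59 to 0.94) and 6 of the 10 by rho. In the same arrays these 5 genes had r between -0.77 and -0.52 with the 3′ to 5′ control difference, a sign of RNA quality whose part in these correlations was not tested.

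The late genes were linked to them unevenly in these 14 arrays. Cd22 followed Cd79b (r = 0.81, rho = 0.73; permutation test, adjusted p = 0.00234 and 0.0348), and Bank1 correlated with each of the 5 varying early genes by r (0.65 to 0.69) though only with Cd79b by rho (0.69, adjusted p = 0.0429). Ms4a1 passed with Cd79b alone among the early genes and only by r (0.62, adjusted p = 0.0293; rho = 0.58, adjusted p = 0.086). With Ebf1, Ms4a1 had r = 0.43 (rho = 0.32; permutation test, adjusted p = 0.153 and 0.331). Over all 36 pairs, 24 passed by r and 9 by rho (unadjusted p under 0.05 in 24 by r and 18 by rho).

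The calls did not hold without the 2 spleens that had high Vpreb1 and low Ebf1. Among the 12 arrays with Ebf1 above log2 6, no pair passed (0 of 36 by r and by rho in the permutation test with Benjamini-Hochberg adjustment, 8 by r and 4 by rho at an unadjusted p under 0.05). The strongest was again Ebf1 with Pou2af1 (r = 0.86, p = 0.00246, adjusted p = 0.0886). The medians were 0.46 among early genes, 0.34 between early and late genes and 0.32 among late genes.

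In the 33 arrays with low Vpreb1 the late genes had the highest median r, and Cd79b and Blnk were close to them. Ms4a1 had r = 0.94 with Bank1 (rho = 0.87) and r = 0.94 with Cd79b (rho = 0.91), both with an adjusted p of 2.12e-05 by the permutation test, which comes from the smallest p the resamples can give. Blnk had r = 0.93 with Cd79b, 0.92 with Bank1 and 0.91 with Ms4a1. The median r was 0.86 among the 3 late pairs, 0.74 between late genes and early genes other than Pax5, and 0.68 among those early genes.

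By r, Ebf1 was the least linked of the varying genes over these 33 arrays, where it lay between 5.02 and 5.76. It had r = 0.47 with Ms4a1 (rho = 0.58; permutation test, adjusted p = 0.00966 and 0.000795) and 0.40 with Cd79a (rho = 0.53). Without the 2 arrays with the most extreme Ebf1 these r were 0.69 and 0.59. In the same check r of Ebf1 with Bank1 went from 0.45 to 0.73 and with Pou2af1 from 0.71 to 0.63. The low r of Ebf1 thus depended in part on those 2 arrays. Pax5 was not linked to any of the others: its 8 pairs had r between -0.11 and 0.10, and none passed. Every one of the 28 pairs without Pax5 passed, by r and by rho. Whether any r differed between the clusters was not tested.

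**Figure D3:**
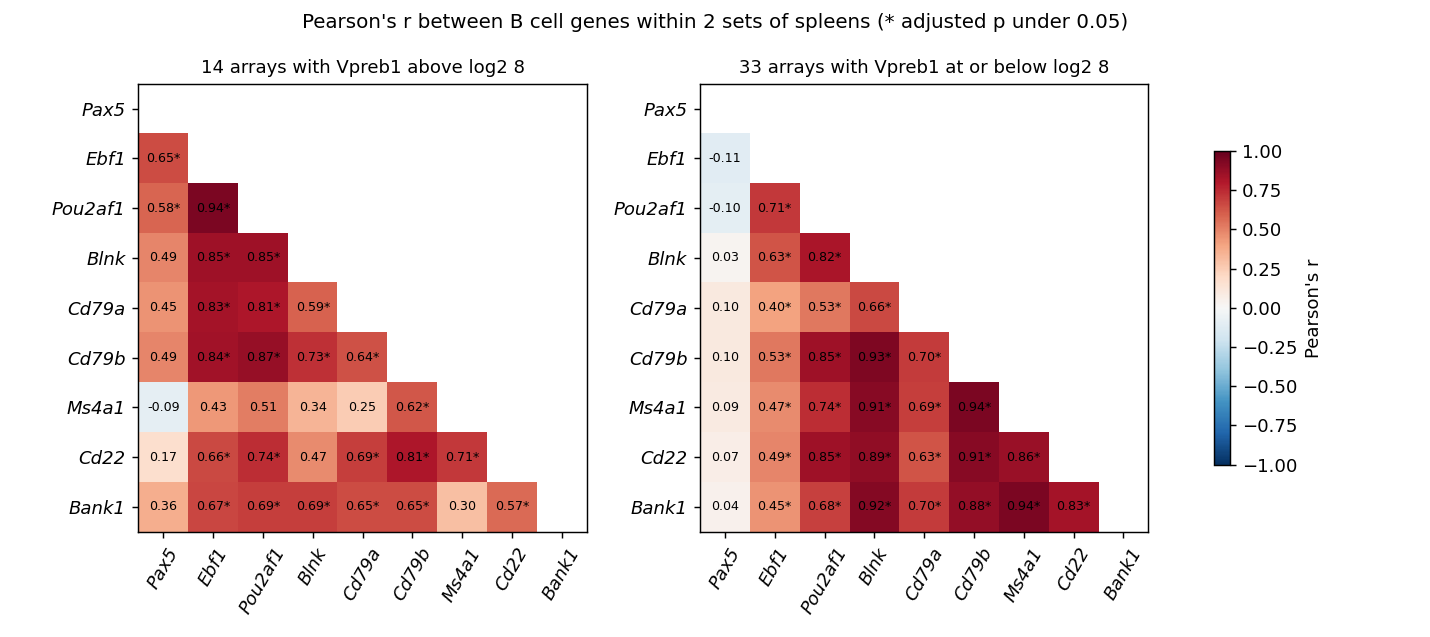
Pearson's r for each of the 36 pairs within the 14 arrays with Vpreb1 above log2 8 and within the 33 others; colour gives r from -1 to 1 and an asterisk an adjusted permutation p under 0.05. In the first panel Ms4a1 has an asterisk with Cd79b (0.62) and with Cd22 (0.71) and with no other gene; in the second panel the Pax5 column has none.

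High correlations of this size were uncommon among genes at large. Of all pairs of the 18178 tested genes, 2.54% had r above 0.5 and 0.00254% r above 0.9 over the 47 arrays. An r above 0.5 was found in 7.43% of pairs within the 14 arrays with high Vpreb1 and 2.37% within the 33 others, and an r above 0.9 in 0.0264% and 0.00577%. This background is loose, since the filter at log2 5 lay below every array median and kept genes near the floor. For 45.4% of the tested genes the highest value was below that of Pax5 (5.65).

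The genes whose pattern was most like each of the 9 were found by Spearman's rho over the 47 arrays. The 5 nearest to each came to 24 different genes, of which 14 were on the lists of B lineage and plasma cell genes used here. Mzb1, a chaperone of immunoglobulin assembly, was nearest to Ebf1 (rho = 0.88), Blnk (0.94) and Cd79a (0.85), and Snn to Pou2af1 (0.94). Tnfrsf13c, the receptor for the B cell survival factor BAFF, was nearest to Cd79b (0.94). Ms4a1 was nearest to the immunoglobulin heavy chain segment Ighv14-2 (0.95), the IgM Fc receptor gene Fcmr (0.92) and the complement receptor gene Cr2 (0.91). Srpk3 was nearest to Cd22 (0.90), and H2-Ob, which encodes a chain of a peptide-loading regulator in B cells, to Bank1 (0.91).

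Pax5, for all its small range, was nearest to Chchd10 (rho = 0.76), Igll1 (0.73), Cplx2 (0.71), Tmem255a (0.70) and Vpreb3 (0.70). Of the 15 genes nearest on average to the early genes and the 15 nearest to the late genes, 7 were shared. Among all genes, a rho above 0.5 was found for 0.853% with Pax5, 5.84% with Ebf1, 8.84% with Pou2af1, 7.96% with Blnk, 5.84% with Cd79a and 7.79% with Cd79b. Among the late genes the shares were 3.71% with Ms4a1, 8.13% with Cd22 and 7.16% with Bank1. All these values include the step between the 2 clusters.

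Lists of other B lineage genes were set against the early and the late genes. Averaged over the early genes, rho was above 0.5 for 11 of 16 measured precursor genes, against a background of 5.79%, and for 14 of 16 other B cell receptor and surface genes. Averaged over the late genes it was above 0.5 for 8 of 16 precursor genes and 15 of 16 surface genes, against a background of 6.29%. The medians were 0.56 and 0.69 to the early genes and 0.51 and 0.81 to the late genes, where the medians over all genes were -0.09 and -0.10. The lists were set by name, and no test was run on them.

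Within the 14 arrays with high Vpreb1, precursor genes had a median mean rho of 0.59 to the early genes (12 of 16 above 0.5, background 3.46%) and of 0.37 to the late genes (3 of 16, background 1.39%). Surface genes had 0.30 to the early genes (2 of 16) and 0.47 to the late genes (7 of 16). In the 33 arrays with low Vpreb1, 1 of 16 precursor genes and 10 of 16 surface genes were above 0.5 to the early genes (background 0.209%), and 3 of 16 and 15 of 16 to the late genes (background 1.75%). Precursor genes were thus nearer to the early genes in the 14 arrays, and surface genes nearer to the late genes in both sets. The sets were split by Vpreb1, which is on the precursor list, so low precursor counts in the 33 arrays were partly built in.

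Set against Ebf1 and Ms4a1 alone in the 14 arrays, 15 of the 16 precursor genes had a higher rho with Ebf1 than with Ms4a1, Cd24a being the exception (-0.34 and 0.31). Of the 16 surface genes 13 had a higher rho with Ms4a1, the exceptions being Cxcr5 (0.66 with Ebf1 and 0.39 with Ms4a1), Cd37 (0.40 and 0.36) and Spib. The share of all genes nearer to Ebf1 than to Ms4a1 in these arrays was not computed. Some surface genes stayed near the floor, with highest values of 6.01 for Fcer2a, 5.59 for Cd180 and 5.54 for Ciita. The genes given next were chosen after their values were seen. In the 14 arrays Ebf1 had rho = 0.95 with Sox4, a transcription factor of progenitors, 0.85 with Foxo1, which drives the recombination genes, 0.83 with Lef1 and 0.81 with Igll1. Ms4a1 had 0.36, 0.35, 0.37 and 0.18 with the same 4 genes. Ms4a1 had rho = 0.93 with Fcmr, 0.84 with Cd72, 0.82 with Cr2 and 0.72 with Fcer2a, the low-affinity IgE receptor of mature B cells, where Ebf1 had 0.25, 0.24, 0.36 and 0.08. Spib, a transcription factor of the B lineage, had 0.78 with Ebf1 and 0.61 with Ms4a1.

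**Figure D4:**
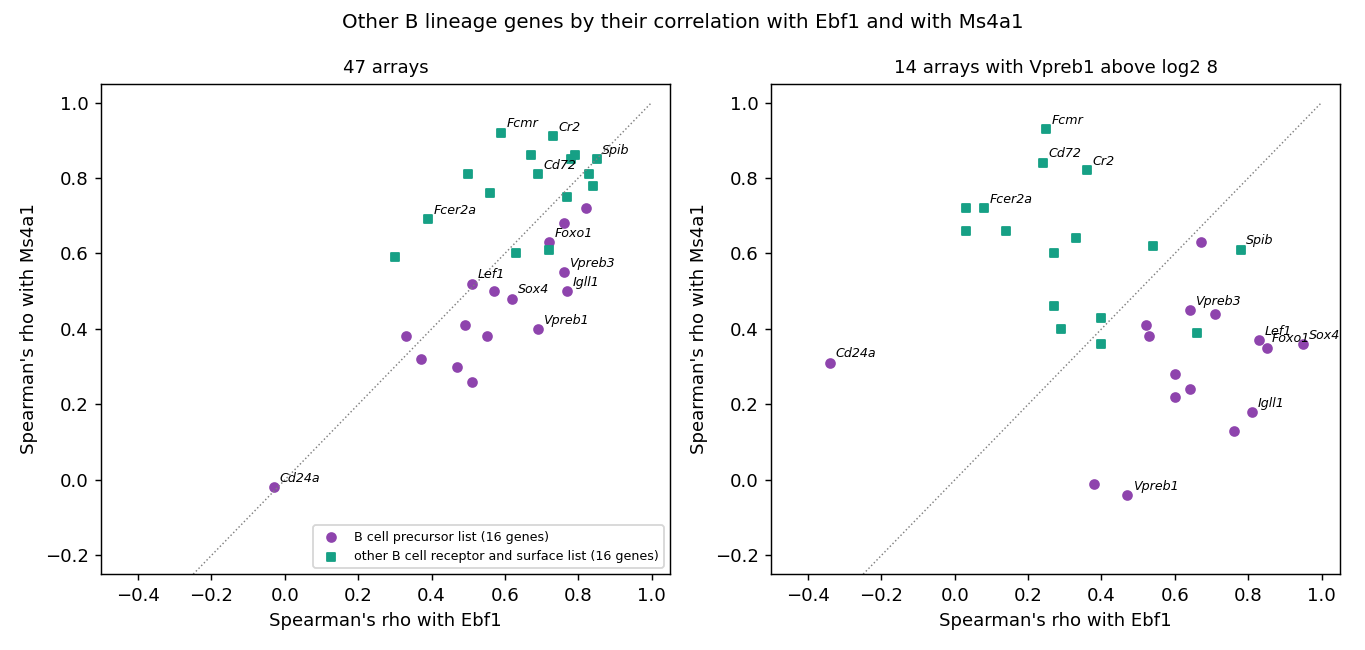
Spearman's rho of each measured gene of the B cell precursor list (purple circles, 16 genes) and of the other B cell receptor and surface list (green squares, 16 genes) with Ebf1 on the horizontal and Ms4a1 on the vertical axis, over 47 arrays and within the 14 arrays with Vpreb1 above log2 8; the dotted line marks equal rho. In the second panel Sox4 (0.95 and 0.36) lies far below the line and Fcmr (0.25 and 0.93) far above it.

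Genes that act beside the 9 in the receptor pathway and in B cell transcription followed them in part. Of 17 measured genes of receptor signalling, 8 had a mean rho above 0.5 to the early genes and 8 to the late genes, among them the receptor kinase genes Syk (0.75 and 0.72) and Blk (0.71 and 0.80), the phospholipase gene Plcg2 (0.66 and 0.64) and the protein kinase C gene Prkcb (0.72 and 0.76). Of 17 transcription factor genes, 7 were above 0.5 to the early and 8 to the late genes, with Irf8 at 0.77 and 0.83, Foxp1 at 0.73 and 0.74 and Irf4 at 0.72 and 0.71. Runx1 (0.09 and 0.07) and Pou2f2 (0.12 and 0.09), which encodes an octamer factor that Pou2af1 binds, did not follow over the 47 arrays. Pou2f2 stayed between 5.15 and 5.34, near the floor. The background was 5.79% for the early and 6.29% for the late genes, and these counts include the step between the clusters. Within the 14 arrays with high Vpreb1 the signalling counts were 3 to the early and 3 to the late genes and the transcription factor counts 7 and 4 (backgrounds 3.46% and 1.39%). In the 33 others they were 2 and 4, and 2 and 5 (backgrounds 0.209% and 1.75%).

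The mean standardised level of each list was also set against each gene, with permutation p-values adjusted over 144 relations in each set of arrays. In the 14 arrays with high Vpreb1 the precursor mean passed with 5 of the 9 genes, all early: Ebf1 (r = 0.94, rho = 0.85; permutation test, adjusted p = 0.00048), Pou2af1 (0.90), Blnk (0.88), Cd79b (0.86) and Cd79a (0.71). With Ms4a1 it had r = 0.47 (adjusted p = 0.206 by the permutation test). The surface mean passed with Ms4a1 (r = 0.93, rho = 0.93, adjusted p = 0.00048 by the permutation test), Cd22 (0.81) and Cd79b (0.77), and had r = 0.58 with Ebf1 (adjusted p = 0.102). By rho the precursor mean passed with 4 of the 9, Cd79a being lost, and the surface mean with Ms4a1 alone. The mean of the transcription factor list passed with 6 of the 9 genes in these arrays, most closely with Ebf1 (r = 0.93, rho = 0.89; permutation test, adjusted p = 0.00048), and with 4 by rho. Lef1 is on this list and the precursor list, and Spib on this list and the surface list, so the list means are not independent.

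Without the 2 spleens with low Ebf1 fewer of these relations passed. In the 12 arrays with Ebf1 above log2 6 the precursor mean passed with 2 genes by r, Ebf1 (0.87; permutation test, adjusted p = 0.0154) and Pou2af1 (0.83), and with 0 by rho, and its median r over the 9 genes was 0.48, against 0.71 in the 14. The transcription factor mean passed with the same 2 genes by r (0.88 and 0.83) and with 0 by rho. The surface mean passed with Ms4a1 by r (0.92; permutation test, adjusted p = 0.00432) and by rho (0.93, adjusted p = 0.0101).

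In the 33 arrays with low Vpreb1 the surface mean passed with 7 of the 9 genes, among them Cd79b and Ms4a1 (r = 0.91 each), and the precursor mean with 1. Vpreb1, by which the arrays were split, is itself on the precursor list, and Igll1 was at most 6.26 here. The split thus narrowed the precursor genes, and the 2 counts cannot be compared. The mean of the MHC class II list, whose genes B cells share with macrophages and dendritic cells, passed with 6 there, and that of the dendritic cell list with 6. Of 11 measured dendritic genes, 1 had a mean rho above 0.5 to the early genes and 2 to the late genes (backgrounds 0.209% and 1.75%). The medians over the 11 were 0.17 and 0.20. Ly6d had the highest rho of the 11 with Ms4a1 (0.84) and with Cd79b (0.85), and its part in the relations of the list mean was not tested. The T and NK cell mean passed with 3 of the 9 in these arrays and with none in the 14.

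Genes of other cells moved with the B cell genes as well. Over the 47 arrays the monocyte and macrophage mean passed with all 9 genes (r = 0.40 to 0.69). Of its 12 genes, 6 had a mean rho above 0.5 to the early genes (background 5.79%). That count was 1 in the 14 arrays and 0 in the 33 (backgrounds 3.46% and 0.209%). To the late genes the counts were 6, 0 and 2 in the same order (backgrounds 6.29%, 1.39% and 1.75%). The erythroid mean passed with 8 in the negative direction (r = -0.47 to -0.11 over the 9). Neither the monocyte mean in the 14 nor in the 33 arrays passed with any gene, and the erythroid mean passed with 1 gene in the 33 and none in the 14. The mean of 3 follicular stroma genes passed with all 9 over the 47 arrays (r = 0.49 to 0.75) and with 1 within each cluster. The 3′ to 5′ control difference passed with none over the 47 arrays (r = -0.27 to -0.09), and within the 14 with Cd79a (r = -0.72, rho = -0.77; permutation test, adjusted p = 0.00602). Over the 9 genes in the 14 arrays its r ran from -0.77 (Pou2af1, adjusted p = 0.0595 by the permutation test) to -0.23, with a median of -0.52, and in the 12 arrays with Ebf1 above log2 6 from -0.87 (Cd79a) to 0.28. The part of these cells and of RNA quality in the correlations was not tested.

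Between tumours labelled with and without an Erg insertion, all 9 genes had lower means with the insertion label, by amounts well inside the spread between spleens. Ebf1 was above log2 6 in 4 of 26 spleens with the label and 8 of 21 without it, and Vpreb1 above log2 8 in 5 of 26 and 9 of 21. Pou2af1 had a lowest, median and highest value of 5.06, 5.78 and 9.31 with the label and of 5.30, 6.09 and 9.18 without it. The ranges overlapped over most of their length for every gene. Bank1 reached 8.50 with the label and 7.68 without it, and Cd22 7.88 and 7.32.

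The largest difference, for Pou2af1, was -0.54 ± 0.41 (SE; 95% interval -1.38 to 0.29; n = 26 and 21; limma, p = 0.194, adjusted p = 0.999). Ebf1 had -0.39 ± 0.30 and Ms4a1 -0.38 ± 0.25 with the same adjusted p, and the 95% interval of Ms4a1 was -0.88 to 0.13. Of the 18178 genes tested, 0 passed (0% called by limma; 666 or 3.66% had an unadjusted p under 0.05), and none of the 9 had an unadjusted p under 0.05. Of the 16 precursor genes, 1 was higher with the label and 15 were lower, and of the 16 surface genes 2 were higher. Over all tested genes, 52.6% had a higher estimate with the label. The 9 genes and many list genes varied together, so such counts of direction are not independent. None of the 16 genes in either list passed.

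By transposon line, all 6 early genes and all 3 late genes had higher estimates in line 6113, by amounts within the spread between spleens. Over all tested genes, 45.4% had a higher estimate in line 6113. Because the 9 genes varied together, their directions are not independent. Ebf1 was above log2 6 in 8 of 21 spleens of line 6113 and 4 of 26 of line 6070. Pou2af1 had a lowest, median and highest value of 5.07, 6.18 and 9.18 in line 6113 and of 5.06, 5.80 and 9.31 in line 6070, with a difference of 0.79 ± 0.41 (SE; 95% interval -0.04 to 1.62; limma, p = 0.0627, adjusted p = 0.999). For the late genes the differences were 0.32 ± 0.20 for Bank1, 0.19 ± 0.18 for Cd22 and 0.01 ± 0.25 for Ms4a1 (95% interval -0.50 to 0.51). Again 0 genes passed (0%; 540 or 2.97% at an unadjusted p under 0.05), and none of the 9 had an unadjusted p under 0.05.

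The labelled sexes and the age label gave no call either. With female minus male labels the 9 differences lay between -0.34 (Pou2af1, SE 0.40) and -0.05 (Pax5, SE 0.028), and 2.53% of all genes had an unadjusted p under 0.05. The slope per unit of the age label was 0.0016 ± 0.011 for Ebf1 and 0.0001 ± 0.0096 for Ms4a1, with 3.78% of all genes at an unadjusted p under 0.05. Whether the Erg label difference differed between the lines was tested as an interaction, which passed for 0 genes (7.07% unadjusted) and had an adjusted p of 0.898 to 0.998 for the 9 genes. Intervals this wide, and sex labels that match Xist RNA in 23 of 47 arrays, leave differences of over 1 log2 unit possible. By the Erg and line labels this held for Pou2af1, Blnk and Cd79b, and by line for Ebf1 (upper end 1.09). By the sex label it held for Pou2af1 and Blnk. The intervals of the interaction went past 1 unit for Ebf1, Pou2af1, Blnk, Cd79b, Ms4a1 (-1.16) and Bank1 (1.06).

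**Figure D5:**
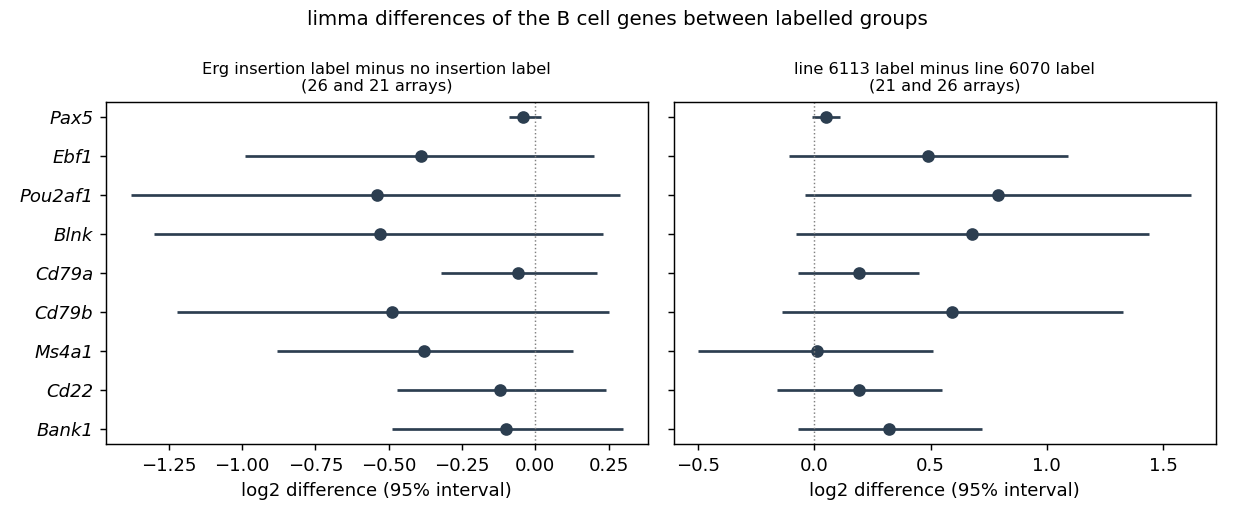
Log2 difference from limma with its 95% interval for each gene, with the Erg insertion label minus without (26 and 21 arrays) and line 6113 minus line 6070 (21 and 26 arrays). Every interval crosses 0; the widest are those of Pou2af1, from -1.38 to 0.29 and from -0.04 to 1.62.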

How the data were processed

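Spleen RNA was labelled by a 3′ in vitro transcription method and hybridised to 1 array per mouse, per the labels' protocols. The deposited values are log2 values that the authors made with RMA in the affy package of R 2.15, per the submitters' processing notes. This method corrects background, brings all arrays to 1 distribution and combines probes. The number of arrays limits the precision. Each mouse is a separate animal.

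Of 45101 probe sets, 34945 were annotated to 1 gene and 932 to several; the brightest single-gene probe set gave 18193 genes, and the 18178 above log2 5 in at least 9 arrays, all 9 described genes among them, were tested. The members, the gene lists and the thresholds were chosen with earlier results of these data known. The clusters by Vpreb1 and Ebf1 were added after the values were seen. Named besides the 9 genes are the 5 nearest to each by Spearman's rho, the 15 nearest to the early and to the late genes, and genes of the lists.

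Label comparisons used limma 3.58.1 (lmFit, eBayes) in R 4.3.3, with p-values adjusted by Benjamini-Hochberg over the tested genes and called under 0.05; Erg, line and sex labels adjusted for each other, and age for all of them. The procedure was tested on simulated data. Correlations used numpy 2.4.6 and scipy 1.17.1 under Python 3.11.15, with two-sided permutation tests of 100000 resamples. Alternatives were other probe sets, covariates, filters, array weights, the tumour number as a block, subsets of arrays and the arrays whose sex label matched.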

Additional observations from a re-analysis of the deposited data

How the results depend on the processing

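No paired analysis was possible because the replicate numbers only follow accession order and pair no arrays. All 36 pairs passed over the 47 arrays by r and by rho, and by r within each line, within tumour number 9, with the mean of probe sets, and after removing the labels or the control difference. By rho 28 passed in line 6070, where the 8 with Pax5 were lost, and 35 in line 6113. In the 12 arrays with Ebf1 above log2 6, 0 passed. The median r among early genes moved to 0.73 with high Vpreb1, 0.53 with low Vpreb1, 0.46 in the 12 and 0.65 in the 35 other arrays. The early-late median moved to 0.63, 0.69, 0.34 and 0.65 in the same order, and the late median to 0.57 with high Vpreb1 and 0.32 in the 12. Fewer arrays and the loss of the step between clusters are part of these settings. Signs turned for Pax5 with Ebf1 (-0.11 with low Vpreb1, -0.01 in the 35), Pax5 with Pou2af1 (-0.10 and -0.02), Pax5 with Ms4a1 (-0.09 with high Vpreb1, -0.43 in the 12), and in the 12 for Pax5 with Cd22 (-0.23), Blnk with Ms4a1 (-0.05) and Cd79a with Ms4a1 (-0.08). Relations with list means past the threshold numbered 88 over all arrays, 19 with high and 36 with low Vpreb1, and 8 in the 12 arrays.

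In the Erg comparison 0 genes passed under every alternative run. The filter at log2 6 tested 7 of the 9 genes. Cd79a had a difference of 0 with the tumour number as a block. In the 23 arrays whose sex label matched, Cd79a had 0.04, Cd22 0.05 and Bank1 0.13. In those arrays the line label called 1 gene, Crip1 (0.97, adjusted p = 0.00967 by limma; named after its value was seen). There the sex label called 6, Xist, Eif2s3y, Kdm5d, Uty, Kdm6a and Eif2s3x. The arrays were chosen by agreement of the label with Xist, so the Xist call follows from that choice. There the sex label differences turned for Ebf1 (0.18), Pou2af1 (0.11), Blnk (0.03), Cd79a (0.07), Cd79b (0.07), Ms4a1 (0.07) and Cd22 (0.04), and the age slopes for Pax5 (3e-04), Cd79b (0.0133), Cd22 (0.0012) and Bank1 (0.0058). Without covariates the age slopes turned for Ebf1 (-0.0072), Pou2af1 (-0.0111), Blnk (-0.0078), Cd79a (-0.0015) and Ms4a1 (-0.0067). None of these signs belonged to a called difference, and the cause was not tested. Compression near the floor limits Pax5 and Cd79a most.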

Other observations

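Some list genes moved against the B cell genes. Over the 47 arrays Dapp1, an adaptor of receptor signalling, had a mean rho of -0.60 to the early and -0.65 to the late genes, and Grb2, an adaptor used by many receptors, -0.48 and -0.54. The erythroid factor gene Nfe2 had -0.64 and -0.66.

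Cd24a, a surface glycoprotein gene listed with the precursor genes, did not vary with them: its mean rho was -0.09 to the early and -0.09 to the late genes, and it ran from 10.21 to 12.16. Ighm was above log2 7 in all 47 arrays, from 7.46 to 11.58 where Vpreb1 was low and from 9.32 to 12.19 where it was high.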
